A study of Mus musculus with 2 samples.

Results

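The immune cells of newborn mouse dorsal skin were a small class in these data: 59 of 10436 cells that passed the quality filters carried an immune signature, 34 of 5178 in the control library and 25 of 5258 in the induced library. A cell was counted as immune when at least 3 of 6 genes shared by blood-derived cells were detected and the genes named Krt plus a digit gave under 100 of 10000 of its unique molecular identifiers (UMIs, each standing for 1 captured RNA molecule). The 6 genes were Ptprc, which encodes the pan-leukocyte phosphatase CD45, Tyrobp and Fcer1g, which encode signalling adaptors of activating and Fc receptors, Laptm5, a lysosomal membrane protein of blood cells, Coro1a, an actin regulator of leukocytes, and Cd52, a small surface glycoprotein. Cells also needed at least 1000 UMIs, at least 500 detected genes and under 15% mitochondrial UMIs. These values selected the cells, so the levels of the 6 genes and of keratins are a description only.

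Both libraries were made from the dorsal skin of postnatal day 3 mice, and both were labelled with the treatment Dox (doxycycline, a drug commonly used to switch on transgenes). The control library had the genotype wild type, the other the genotype miR-200b induced. Neither the construct, the cell type that expressed it, nor the number of animals per library is given in the sources used here, and the control carried no described transgene. Epidermis and dermis were dissociated separately with enzymes and mixed 30:70 before loading, so the share of any immune cell also reflects that mixture. Each genotype had 1 library, so nothing here is tested between genotypes, and every interval is for counting error alone.

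Skin holds several kinds of immune cells. Langerhans cells are macrophage-related cells of the epidermis that sample antigen and anchor to keratinocytes through adhesion molecules such as EPCAM, and they settle and mature around birth. Dermal macrophages scavenge debris and supply complement, dermal dendritic cells carry antigen to lymph nodes, γδ T cells populate mouse epidermis early in life, and mast cells store proteases and histamine in granules. Most of the myeloid cells among them depend on the receptor CSF1R for growth and survival.

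The UMI counts of the immune cells were deep relative to their number. Control immune cells held from 1615 to 31120 UMIs with a median of 16610, and induced ones from 2319 to 35479 with a median of 18816. Over all deposited barcodes the libraries summed to 100409201 and 119705137 UMIs. The libraries shared 74 barcodes, 10 of them among filtered cells and 0 among the immune cells.

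Among cells under the keratin limit, a gap in the 6 selection genes separated the immune cells from the rest. Of these cells, 0 of either library had exactly 2 of the 6 genes, while 40 control and 18 induced cells had 1. At the other side of the threshold, 1 control and 2 induced cells had exactly 3, and 26 of 34 control and 20 of 25 induced cells had all 6. The keratin limit left out 9 control and 4 induced cells with at least 3 of the genes, and their keratin levels began at 179.7 and 150.8 per 10000. Over that limit, 7 control and 13 induced filtered cells had exactly 2 of the genes, so no gap was seen there. Kept cells reached 91.1 and 63.1 per 10000 at most, with medians of 4.66 and 5.82, so keratin RNA was present in them at a low level.

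The leading genes of the immune cells, ranked by the lower of the ratios over the other cells in the 2 libraries, were antigen presentation and phagocyte genes. Cd74, the invariant chain that escorts MHC class II molecules, stood at 18390 CPM (counts per 1e+06 UMIs of the summed cells) in the control immune cells and 19690 in the induced ones, against 7.96 and 9.11 CPM in all other cells. H2-Aa and H2-Ab1, the chains of an MHC class II molecule, followed, and then Fcer1g, Tyrobp, Cd52, Lyz2, Coro1a, C1qa and Ctss. Fcer1g, Tyrobp, Cd52 and Coro1a among them had chosen the cells, and the other 6 come from the same cells, so the list is no test of the label. Markers of granulocytes were near absent: of 9 neutrophil markers, 8 had no UMI in the control immune cells and 5 had none in the induced ones, and the summed neutrophil level of a cell was at most 7.18 and 0.80 per 10000. Of 7 B cell markers 3 had UMIs in each library, while Cd79a, Ms4a1 and Pax5 were at 0. Ighm, the heavy chain gene of immunoglobulin M, singled out after its values were seen, had 25 UMIs in 13 of 34 control and 1 UMI in 1 of 25 induced immune cells, and Cd79b 6 and 1 UMIs in 5 and 1 cells.

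The share of immune cells among filtered cells was 0.657% (exact Clopper-Pearson 95% interval 0.455 to 0.916%) for control skin and 0.476% (0.308 to 0.701%) for induced skin. The induced share relative to the control share was -0.47 on the log2 scale, with bounds of -1.27 and 0.32, so a difference was not detectable at this depth. Fewer immune cells and a poorer recovery of them in dissociation cannot be told apart here.

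Subclasses were defined by 1 gene each. Csf1r, the receptor of the macrophage growth factors CSF1 and IL-34, marked myeloid cells, Cd3g, a chain of the T cell receptor complex, marked T cells, and Cpa3, a granule carboxypeptidase, marked mast cells. Myeloid cells were 26 of 34 immune cells (76.5%, 58.8 to 89.3%) of control skin and 21 of 25 (84.0%, 63.9 to 95.5%) of induced skin, and these intervals overlapped. T cells numbered 3 and 1, mast cells 0 and 2, and 5 and 1 cells had none of the 3 genes. No cell had more than 1 of them. These shares depend on depth: after each cell was thinned to 2000 UMIs, Csf1r was detected in 50% of 32 control and 60% of 25 induced immune cells.

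**Figure D1:**
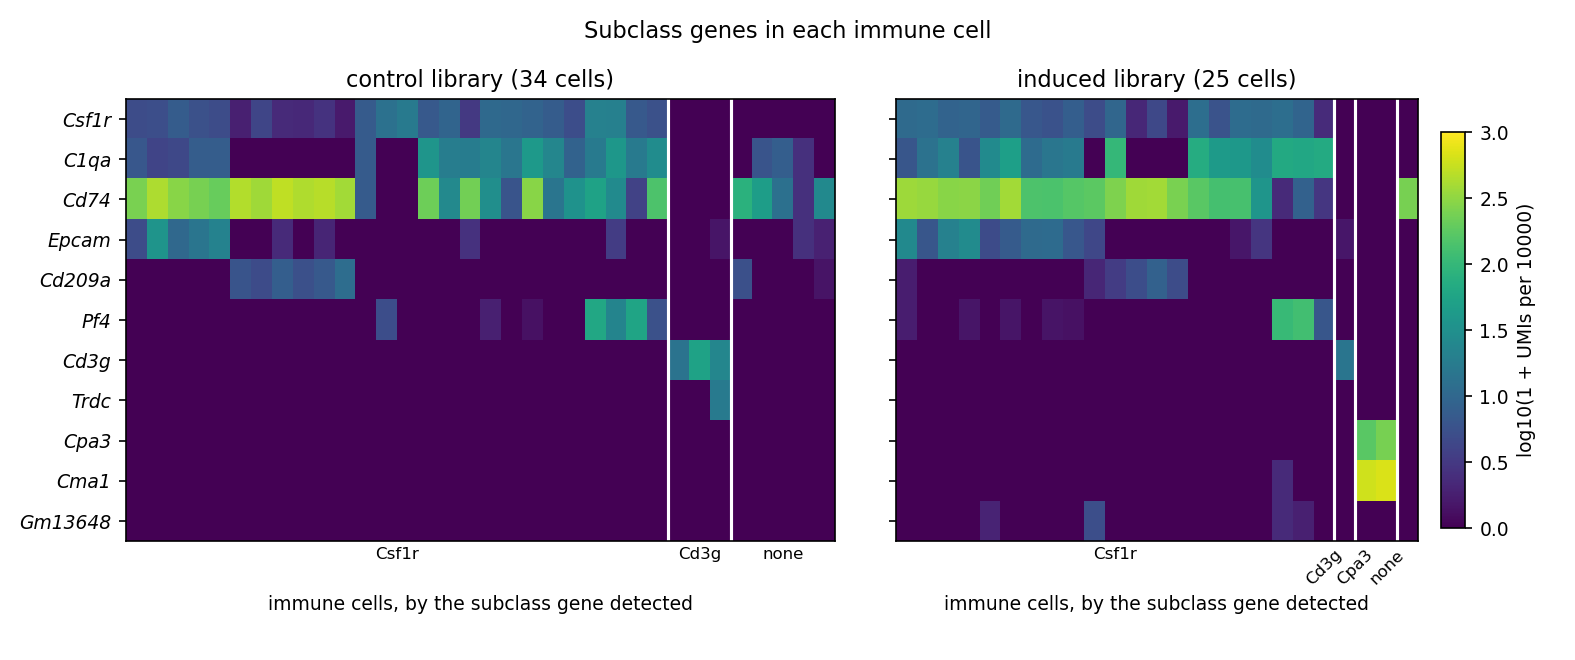
Each column is 1 immune cell (34 control, 25 induced), grouped by the subclass gene detected, and each row is a gene. The colour gives log10(1 + UMIs per 10000 UMIs of the cell). Most Csf1r cells hold Cd74, and they split by C1qa, Epcam, Cd209a and Pf4, while Cma1 and Cpa3 are high in the 2 mast cells of the induced library, and Gm13648 appears in 4 induced cells.

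The 2 mast cells of the induced library were small and highly specialised. They held 2319 and 3223 UMIs, of which Cma1, the granule chymase, gave 142 and 219, Tpsb2, a tryptase, 25 and 100, Cpa3 39 and 78, and Hdc, the enzyme that makes histamine, 21 and 12. Each cell had UMIs of 11 of the 13 mast cell markers, the exceptions over both cells being Mcpt4 and Fcer1a. Kit, the receptor for stem cell factor, gave 1 and 4 UMIs. In the control library 0 of 34 immune cells had Cpa3, which allows a share of up to 8.82%, so the counts of 0 and 2 mast cells do not show a difference. Their presence in a single library sets the immune-wide differences of these genes: over all immune cells Cma1 stood at 809 CPM in the induced library and at least 147-fold lower in the control, taking 3 UMIs in the control library as the limit. Fewer cells of a type and less RNA per cell cannot be told apart in such sums.

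The 4 T cells differed among themselves. A control cell of 20776 UMIs held 47 UMIs of Cd3g and 33 of Trdc, the constant region of the δ chain, with 60 of Trbc1, the β chain constant region, and 28 of Nkg7, a cytotoxic granule gene. Another control cell, of 9381 UMIs, held 49 UMIs of Cd3g, 57 of the chemokine Xcl1, 12 of Nkg7 and 0 of Trdc. The smallest control cell, of 4692 UMIs, had 6 of Cd3g, 4 each of the β chain genes Trbc1 and Trbc2, 2 of Tcrg-C1, a γ chain constant region, and 3 of Il7r, the interleukin 7 receptor. The T cell of the induced library, of 18816 UMIs, had 26 UMIs of Cd3g, 8 of Rora and 3 of Gata3, transcription factors of innate and helper lymphocytes, and 0 of Trdc and Xcl1. It also held 6 UMIs of Trbc2, 4 of Trbc1 and 1 of Trac, the α chain constant region. The variable segments Trdv4 and Tcrg-V5, which mark the T cells of mouse epidermis, had no UMI in any of the 59 cells. The libraries read the 3′ end of transcripts, away from these segments, so their absence cannot tell the kind of T cell. No cell of the 59 had Gzmb, a granzyme of cytotoxic cells. All 3 control T cells were among the 7% of cells with the highest doublet score of their library, and the induced one was not; with that group left out, no control T cell remained. Over all immune cells Xcl1 was 105 and 0 CPM, Trbc1 118 and 8.94 CPM and Trdc 60.7 and 0 CPM, and these differences rested on the few T cells.

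The 6 cells without any subclass gene were mixed. A control cell of 4296 UMIs held 67 UMIs of the chemokine Ccl4, 60 of Cd52 and 36 of Fcer1g, and another of 11392 UMIs held 9 of Ccr2, the receptor that brings monocytes into tissue, 7 of Plac8 and 5 of Cd209a. The control cells of 22056 and 18687 UMIs had keratin levels of 91.1 and 85.1 per 10000 and were both among the highest doublet scores. The induced cell, of 12411 UMIs, held 649 UMIs of Cst3, 301 of Cd74 and 24 of Irf8, a transcription factor of dendritic cells, without Csf1r.

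The 26 control and 21 induced myeloid cells were the only subclass large enough for a comparison of levels. Their summed UMIs were 450044 and 410660. Of the 3826 genes that reached 30 UMIs in the 2 libraries together, 165 (4.31%) were at least 2-fold higher in the induced library and 149 (3.89%) at least 2-fold lower, with 5 CPM added to both levels, and the median log2 ratio was -0.05. These shares are the background for the counts of list members below, and no gene has a test. Of the genes that chose the cells, Csf1r stood at 513 CPM in the control and 650 CPM in the induced myeloid cells, and Tyrobp at 1882 and 1994 CPM, a description only. Spi1, the transcription factor PU.1 of the myeloid lineage, which the rule did not use directly, was 591 and 521 CPM. Of the 12 T cell markers, 11 had no UMI in control and 12 none in induced myeloid cells. The 10 keratinocyte markers all had UMIs, with a summed level of 2.28 to 62.5 per 10000 (median 4.995) in control and 3.17 to 69.6 (median 6.07) in induced myeloid cells, and their part in the results was not tested.

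**Figure D2:**
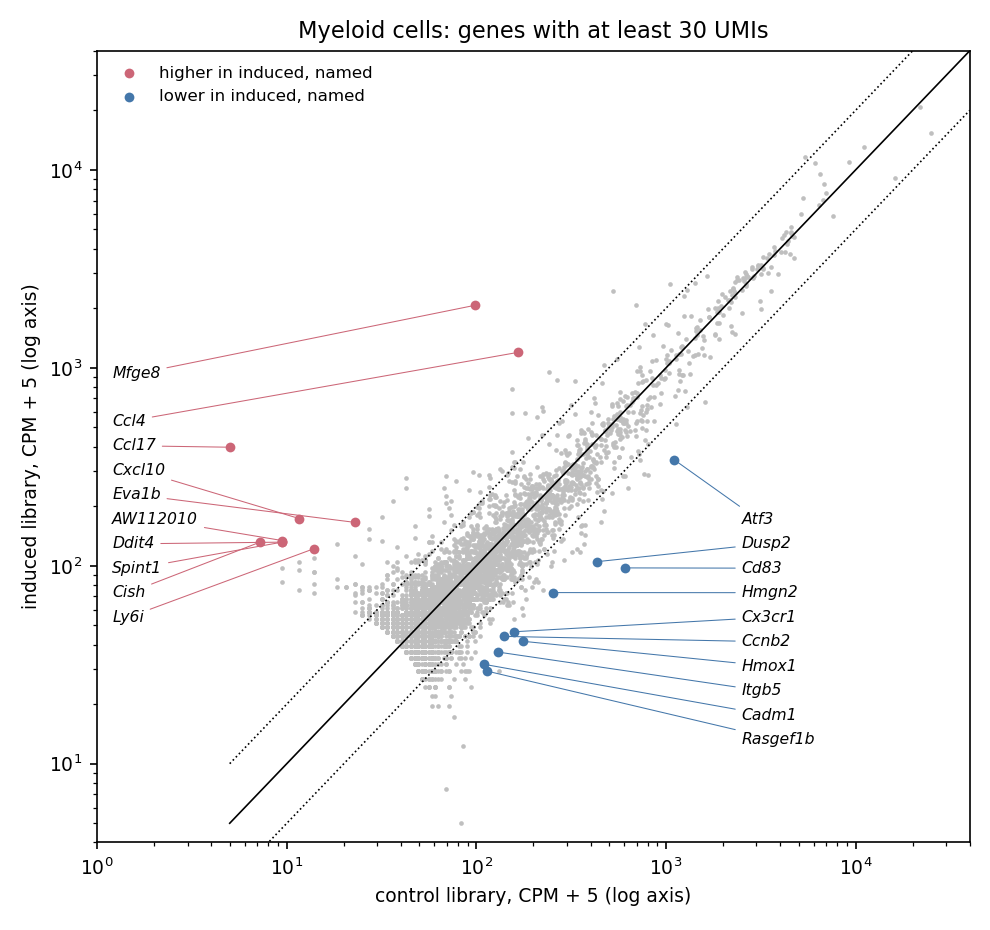
Each point is 1 of 3826 genes with at least 30 UMIs in myeloid cells; the axes give the summed CPM plus 5 of the control (26 cells) and induced (21 cells) library on log scales. The solid line marks equality and the dotted lines 2-fold. The named genes are those with the largest differences under the naming rule, with Mfge8 at 93.3 and 2065 CPM far above the line and Cd83 at 604 and 92.5 CPM far below it.

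Of the 12 listed genes of the Langerhans cell program 8 were measured, 3 were at least 2-fold higher in the induced library and 1 at least 2-fold lower, and the median log2 ratio was 0.84. Mfge8 encodes a secreted bridge between dying cells and phagocytes and is a known product of Langerhans cells (ENSMUSG00000030605, chr7:79133768-79149060, minus strand, GRCm38). Per cell it ranged from 0 to 16.04 UMIs per 10000 with a median of 0 in control and from 0 to 112 with a median of 5.36 in induced myeloid cells. Summed, it was 93.3 CPM (67.3 to 126) and 2065 CPM (1928 to 2209), with UMIs in 9 of 26 and 15 of 21 cells. The ranges of the cells overlapped at the low end, and the upper part was held by induced cells. A single control cell held 61.9% of the control UMIs, and the log2 ratio (5 CPM added) was 4.03 without the top induced cell and 5.26 without the top cell of each library.

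Id2 encodes an inhibitor of E-protein transcription factors that Langerhans cell and dendritic cell development needs (ENSMUSG00000020644, chr12:25093799-25097140, minus strand, GRCm38). It spanned 0 to 10.9 UMIs per 10000 with a median of 1.46 in control cells and 0 to 12.2 with a median of 10.4 in induced cells. The summed levels were 262 CPM (217 to 314) and 864 CPM (777 to 959), a log2 ratio of 1.72 (1.42 to 2.03). Most induced cells lay above every control cell but 1, although a few induced cells were as low as the control ones. In the other skin cells the order was opposite, with Id2 at 55.8 CPM in control and 28.3 CPM in induced cells.

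Ltc4s, the synthase of the lipid mediator leukotriene C4, was 204 and 562 CPM, and Runx3, a transcription factor of Langerhans cells and lymphocytes, 164 and 302 CPM. Epcam itself was 327 and 580 CPM, and in the other cells 308 and 586 CPM. Tgfbr1, a receptor for TGF-β, which Langerhans cells need, was 151 and 90.1 CPM. Mgl2, a C-type lectin of dermal dendritic cells and some Langerhans cells, went the other way, at 762 CPM in control and 287 CPM in induced cells. Cd207, the gene of langerin that defines mature Langerhans cells, had UMIs in 2 control cells and 1 induced myeloid cell only, so mature Langerhans cells could not be followed by it.

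**Figure D3:**
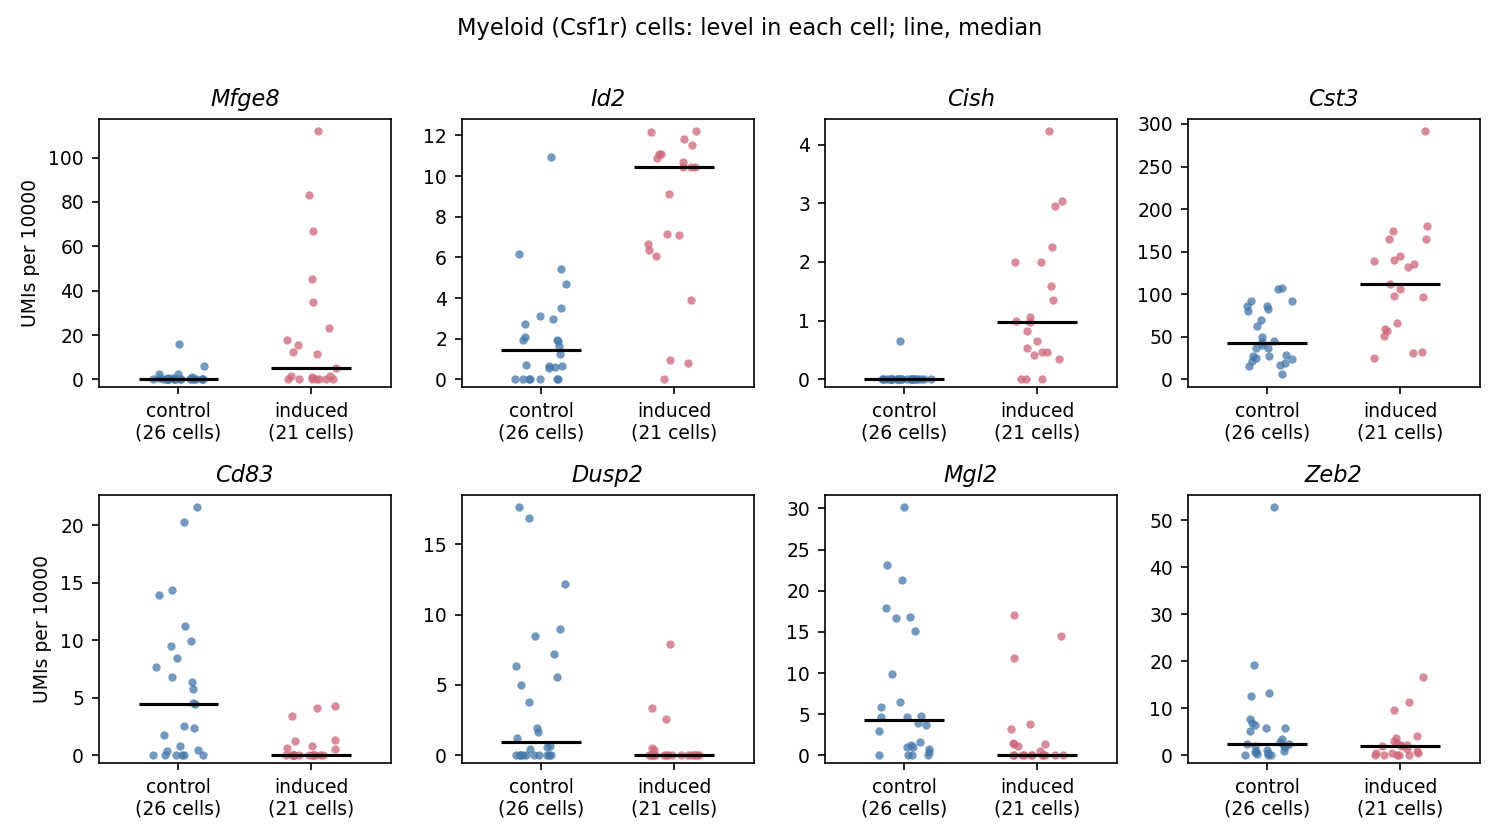
Each point is 1 myeloid cell (26 control, 21 induced) and the line is the median, in UMIs per 10000 UMIs of the cell. Mfge8, Id2, Cish and Cst3 have higher medians in the induced library (for Id2 10.4 against 1.46), and Cd83, Dusp2 and Mgl2 lower ones (for Cd83 0 against 4.50). For Zeb2 the induced cells lie within the range of the control cells, which reaches higher.

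Summed over the myeloid cells, most antigen presentation genes differed little. Of 10 measured genes of the MHC class II list, 0 were at least 2-fold higher, 1 was lower, and the median log2 ratio was 0.07. Cd74 was 21830 and 20720 CPM, and H2-Aa 6686 and 7057 CPM. H2-DMa and H2-DMb1, which load peptides onto class II molecules, were 853 and 1454 CPM and 1020 and 1641 CPM. The gene below the 2-fold line was Cd83, a surface protein of activated antigen-presenting cells that stabilises MHC class II (ENSMUSG00000015396, chr13:43784775-43803132, plus strand, GRCm38). Per cell it spanned 0 to 21.6 UMIs per 10000 with a median of 4.50 in control cells and 0 to 4.33 with a median of 0 in induced cells. Summed, it was 604 CPM (535 to 681) and 92.5 CPM (65.5 to 127), with UMIs in 20 of 26 and 8 of 21 cells, a log2 ratio of -2.71 (-3.24 to -2.21). The MHC class I list had 7 measured genes with a median of -0.29 and none past 2-fold.

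Cst3, which encodes the protease inhibitor cystatin C and is high in dendritic cells, was named after its values were seen. It was detected in every myeloid cell, at 6.86 to 107 UMIs per 10000 with a median of 42.5 in control and 24.9 to 292 with a median of 112 in induced cells. The summed levels were 5424 and 11580 CPM, a log2 ratio of 1.09 (1.02 to 1.17), against 552 and 710 CPM in the other cells.

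Among the receptors for immunoglobulin G, Fcgr3 and Fcgr2b were higher in the induced library, while Fcgr1 was 35.5 and 60.9 CPM and Fcgr4 had 5 and 4 UMIs. Of 10 measured genes of the list of Fc receptors and adaptor partners, 3 were at least 2-fold higher and 1 lower, with a median log2 ratio of 0.26. Without the top cell of the gene in the library where it was higher, 2 and 0 remained, and without the top cell of both libraries all 4 did. Fcgr3, an activating receptor, spanned 0 to 14.3 UMIs per 10000 (median 2.11) in control and 1.68 to 27.1 (median 9.47) in induced cells, and its summed level was 238 CPM (195 to 287) and 945 CPM (853 to 1044). Fcgr2b, the inhibitory receptor, was 176 and 584 CPM and had UMIs in 16 of 26 and 19 of 21 cells. Every induced myeloid cell had Fcgr3 UMIs, against 23 of 26 control cells. Among the adaptors, Fcer1g was 1818 and 2002 CPM, with a log2 ratio of 0.14. Syk, the kinase that acts downstream of them, was 26.7 and 63.3 CPM, and Cd300a, an inhibitory receptor, was the lower member at 129 and 60.9 CPM.

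Genes of macrophage function were higher in part. Of 15 measured genes of the lysosome and lipid-handling list 3 were at least 2-fold higher (Apoe, Fabp5 and Spp1) and 0 lower, with a median of 0.28. Without the top induced cell of each gene only Apoe stayed past 2-fold, and without the top cell of both libraries Apoe and Spp1 did. Apoe, the lipid carrier, was 518 CPM (453 to 589) and 2447 CPM (2298 to 2603), with medians of 1.27 and 8.45 UMIs per 10000 and highest cells of 130 and 177. The other cells held Apoe at 3590 CPM in the control and 1333 CPM in the induced library, the opposite order, and the part of their RNA in the immune values was not tested. Lyz2, the lysozyme of phagocytes, was 1422 and 2664 CPM, and C1qa, a chain of the first complement component, 1284 and 2467 CPM. C1qb and C1qc, the other chains of that component, differed less, at 740 and 847 CPM and at 720 and 1008 CPM. Msr1, a scavenger receptor and the 1 higher gene among 10 measured complement and scavenging genes (median 0.26), had 9 and 40 UMIs in 6 of 26 and 11 of 21 cells, and Mrc1, the mannose receptor, was 278 and 533 CPM. Of 7 measured resident macrophage genes 2 were higher, F13a1 and Pf4, and 1 lower, Gas6, with a median of 0.60. F13a1, a coagulation factor of tissue macrophages, and Pf4 both lost their 2-fold difference without the induced cell that held most of their UMIs, at log2 ratios of -0.10 and 0.14. With the top control cell left out as well, the ratios were 1.30 and 1.31.

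Several inflammatory genes were higher in the induced sums, and single cells held large parts of some of them. Of 14 measured genes of the list of inflammatory cytokines and NF-κB feedback, 8 were at least 2-fold higher, 0 lower, and the median was 1.12. Without the top induced cell of each gene 3 of the 8 remained past 2-fold, Ccl4, Il1rn and Socs3, and without the top cell of both libraries 7 did, all but Il1b at 0.98. Ccl4, a chemokine for monocytes and T cells, was 160 and 1191 CPM, and 1 of the 21 induced cells held 72.4% of its UMIs. Il1b, the cytokine interleukin 1β, was 771 and 1663 CPM, and 1 cell held 53.3% in the control and 1 cell 56.4% in the induced library. By contrast Il1rn, which encodes the antagonist of the interleukin 1 receptor, had 2 UMIs in 2 of 26 control cells and 32 in 8 of 21 induced cells, a log2 ratio of 4.13 (2.16 to 7.24). Socs3, a brake on cytokine signalling, was 113 and 273 CPM with UMIs in 15 and 16 cells.

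The interferon list gave 5 measured genes, of which 2 were higher, Isg15 and Cxcl10, and 0 lower, with a median log2 ratio of 0.92. A single induced cell held 97.7% of the 85 Isg15 UMIs, and the log2 ratio was -1.84 without that cell and -1.35 without the top cell of each library. Cxcl10, an interferon-induced chemokine, had UMIs in 3 cells of each library, 3 and 69 in sum, and Ly6i in 3 and 2 cells, with 97.9% of the induced UMIs in 1 cell. Such values describe a few cells and not the class.

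Several genes named by the size rule were spread over many cells, and Ccl17 was not. Cish encodes a suppressor of STAT5 signalling and is induced by cytokines such as GM-CSF. It had 1 UMI in 1 of 26 control cells and 52 UMIs in 18 of 21 induced cells, a log2 ratio of 5.83 with a wide counting interval of 3.29 to 11.16. In the other skin cells Cish was 41.0 and 42.8 CPM. Csf2rb, the signalling chain of the GM-CSF receptor, was 131 and 295 CPM, its partner Csf2ra 336 and 270 CPM, and Csf2, the gene of GM-CSF, had 1 and 11 UMIs in all other cells of the libraries. Eva1b, a membrane protein gene, had UMIs in 5 of 26 and 19 of 21 cells, at 17.8 and 161 CPM. Spint1, a protease inhibitor of epithelia, had 2 UMIs in 2 control cells and 52 in 10 induced cells. Ccl17, the chemokine that attracts CCR4-bearing T cells, had no UMI in the control myeloid cells and 161 in 4 induced cells, which made it at least 58.8-fold higher with 3 UMIs in the control library as the limit. Of these UMIs 145 lay in 2 cells, and without the top cell the bound was 32.3-fold. Ccr1, a chemokine receptor of myeloid cells, was 64.4 and 219 CPM with UMIs in 12 of 26 and 18 of 21 cells.

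AW112010, an interferon-inducible transcript, had 2 UMIs in 1 control cell and 53 in 5 induced cells, 81.1% of them in 1 cell. Ddit4, a stress-induced inhibitor of the growth kinase mTORC1, had 2 UMIs in 2 control cells and 52 in 9 induced cells. Among the lower genes, Hmgn2, a nucleosome-binding protein gene, was 249 and 68.2 CPM in 20 and 12 cells. Cadm1, an adhesion molecule, was 104 and 26.8 CPM, Itgb5, an integrin chain, 124 and 31.7 CPM, and Rasgef1b 109 and 24.4 CPM. Hmox1, which degrades haem, was 171 and 36.5 CPM, and 1 control cell held 74.0% of its control UMIs; its log2 ratio was -0.30 without that cell and -1.11 without the top cell of each library.

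Monocyte genes did not share a direction. Of 6 measured genes of that list 0 were higher and 2 lower, Cx3cr1 and Plac8, with a median of 0.27. S100a4, a calcium-binding protein of migrating leukocytes, was 1644 and 2905 CPM, and Ccr2 147 and 158 CPM. Plac8 had 29 UMIs in 2 control cells, 96.5% of them in 1 cell. Of 5 measured chemokine receptors Ccr1 was higher and Cx3cr1 lower, and of 6 growth factor receptors Csf2rb was higher and none lower. Csf2rb stood at 0.92 on the log2 scale without its top induced cell and at 1.08 without the top cell of both libraries.

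Slc6a4, the serotonin transporter gene on the mast cell list, was detected in 12 of 21 induced myeloid cells, 25 UMIs in all with at most 20% in 1 cell, and in 0 of 26 control ones. Of the 13 markers of that list Cma1 was the only other one with a UMI in induced myeloid cells (1 UMI), and Cpa3, Tpsb2, Hdc and Kit were at 0 there, as were the remaining markers of that list. The gene was singled out after its values were seen.

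Immediate early genes, which enzymatic dissociation is known to induce, were lower in part. Of 16 measured genes of that list, 1 was at least 2-fold higher and 4 lower, with a median of -0.22. Of the 4, 2 stayed past 2-fold without the top control cell of the gene, and 3 without the top cell of both libraries. Atf3, a stress-induced transcription factor, was 1098 and 338 CPM, Junb 1598 and 670 CPM, Zfp36, which destabilises cytokine mRNAs, 1129 and 514 CPM, and Fosb 369 and 156 CPM. Fos did not follow, at 920 and 913 CPM, nor did Hspa1a, a heat shock gene, at 1311 and 1054 CPM, and Ier3 was higher at 149 and 777 CPM. Dusp2, a phosphatase induced on activation, was 427 and 99.8 CPM with UMIs in 16 of 26 and 5 of 21 cells. In the other cells of the libraries Atf3 was 542 and 330 CPM, Junb 884 and 715 CPM and Fosb 183.5 and 78.5 CPM, also lower in the induced library, whereas Zfp36 was 310 and 342 CPM. Whether handling differed between the suspensions was not tested.

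**Figure D4:**
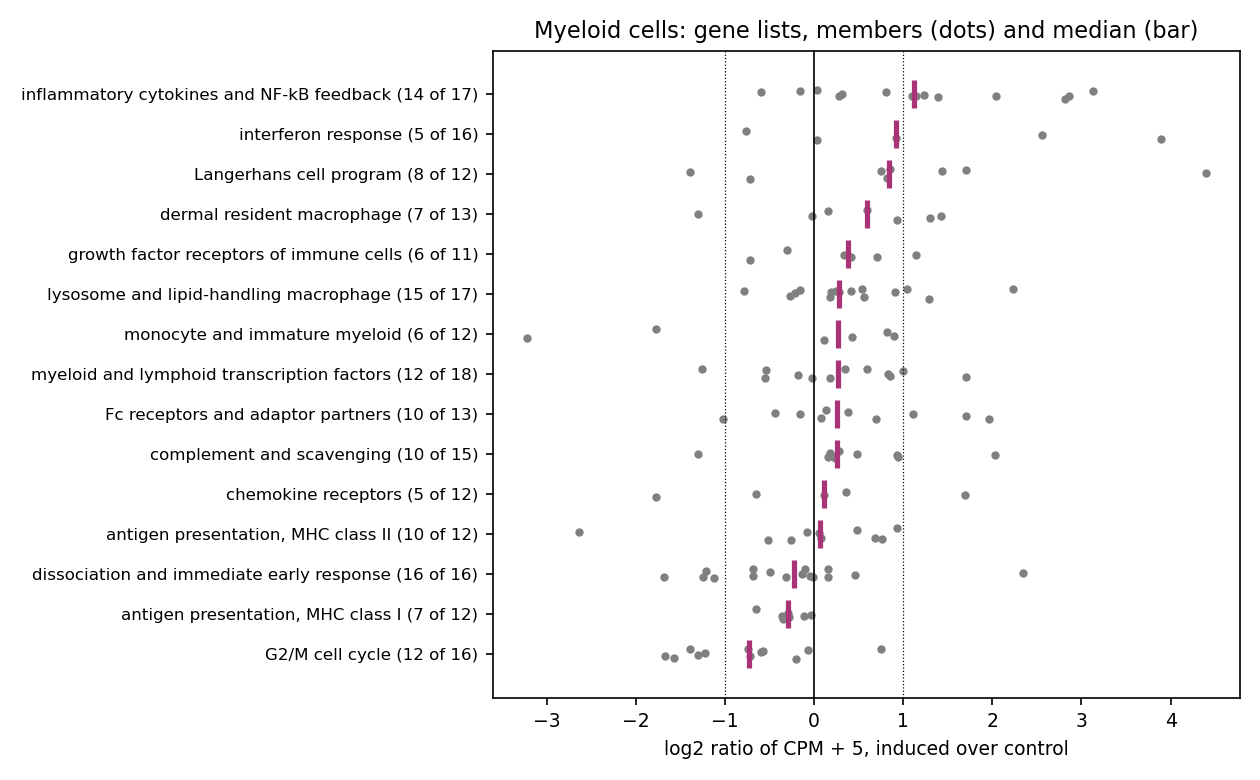
Each row is a gene list with at least 5 measured members in myeloid cells (measured of listed in brackets), each dot 1 member and the bar the median of the log2 ratio of CPM plus 5, induced over control. Dotted lines mark 2-fold. The inflammatory list has a median of 1.12 and the Langerhans program 0.84, while the G2/M list lies at -0.73 and the MHC lists near 0.

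Of 12 measured genes of the G2/M list 5 were at least 2-fold lower and 0 higher, with a median of -0.73. Without the top control cell of the gene 3 of the 5 stayed past 2-fold, and without the top cell of both libraries all 5 did. Birc5, a mitotic survival factor, was 220 and 70.6 CPM in 10 of 26 and 3 of 21 cells, and Ube2c, which marks mitotic proteins for degradation, 371 and 139 CPM. The other skin cells were lower in the induced library too, with Birc5 at 101.5 and 50.9 CPM and Ube2c at 153.9 and 82.0 CPM. Cells with at least 2 UMIs of the 16 G2/M genes were 57.7% of the control and 42.9% of the induced myeloid cells, and 36.0% (17.97 to 57.5%) and 19.0% (5.45 to 41.9%) after thinning to 2000 UMIs. These intervals overlapped widely, so a difference in cycling cells was not detectable with so few cells. Cebpb, Maf and Runx1, transcription factors of myeloid cells, stood at log2 ratios of 0.18, -0.02 and 0.83, and Cx3cr1, a chemokine receptor of monocytes and immature macrophages, at 153 and 41.4 CPM with UMIs in 12 and 6 cells.

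Differences over all myeloid cells can come from other proportions of kinds of myeloid cells. Gates chosen after the values were seen split the myeloid cells into those with at least 5 UMIs of Epcam (5 control, 10 induced), at least 3 of Cd209a, a lectin of dermal dendritic cells (6 and 5), at least 5 of Pf4, a chemokine of dermal macrophages (4 and 3), and the remaining 11 and 4 cells. The induced cell with 35479 UMIs passed both the Epcam and the Cd209a gate. Its keratin level of 63.1 per 10000 was the highest of the induced immune cells, and it held 15 of the 19 UMIs of Gm13648, a transcript of the miR-200b locus that non-immune cells held. The Epcam gate held 19.2% (6.56 to 39.4%) of the control and 47.6% (25.7 to 70.2%) of the induced myeloid cells, and these intervals overlapped.

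Within gates, Id2 was higher in induced cells in 3 of the 4 and Fcgr3 in all 4. Among Epcam cells Id2 ranged from 0 to 4.71 UMIs per 10000 in control (median 0.56) and from 0.95 to 12.2 in induced cells (median 10.8). Among Cd209a cells it was 0.65 to 6.18 against 6.67 to 10.45, without overlap, and among the remaining cells 0 to 10.9 against 9.10 to 11.5. Among Pf4 cells it was 354 and 287 CPM, with a log2 ratio of -0.30 (-1.63 to 0.97). Fcgr3 was 36.9 and 759 CPM in Epcam cells, 311 and 1106 CPM in Cd209a cells, 205 and 1158 CPM in the remaining ones and 607 and 1492 CPM in Pf4 cells, where the interval of its log2 ratio was 0.57 to 2.06.

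Mfge8 and Cd83 differed in fewer gates. Mfge8 was near 0 in the Cd209a cells of both libraries (2 and 3 UMIs) and had no UMI in Pf4 cells, and was 430 and 3192 CPM in Epcam cells and 23.8 and 1744 CPM in the remaining cells. All 5 control Epcam cells had Cd83, at 4.48 to 21.6 UMIs per 10000, and only 1 of 10 induced ones, the cell that passed both gates. Among Cd209a cells Cd83 was 344 and 294 CPM, and the log2 ratio had bounds of -0.93 and 0.47. Cst3 was 9371 and 12270 CPM in Epcam cells, 3098 and 5474 CPM in Cd209a cells, 1921 and 4418 CPM in Pf4 cells and 5872 and 17970 CPM in the remaining ones, so its direction was the same in each gate. Mgl2 was lower in the Cd209a cells as well, at 2015 and 927 CPM. Cd74 was 28000 and 23640 CPM in Epcam cells, 9463 and 11220 CPM in the remaining cells, 43710 and 26590 CPM in Cd209a cells and 8873 and 373 CPM in Pf4 cells, the latter from 4 and 3 cells. In the control Pf4 cells 1 cell held 321 of the 351 Cd74 UMIs, and without it the level was 1721 CPM. H2-Aa was 9936 and 8678 CPM in Epcam cells, 13270 and 9085 CPM in Cd209a cells and 2548 and 2316 CPM in the remaining ones. In Pf4 cells H2-Aa was 2149 and 0 CPM, and the same control cell held 84 of the 85 UMIs.

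**Figure D5:**
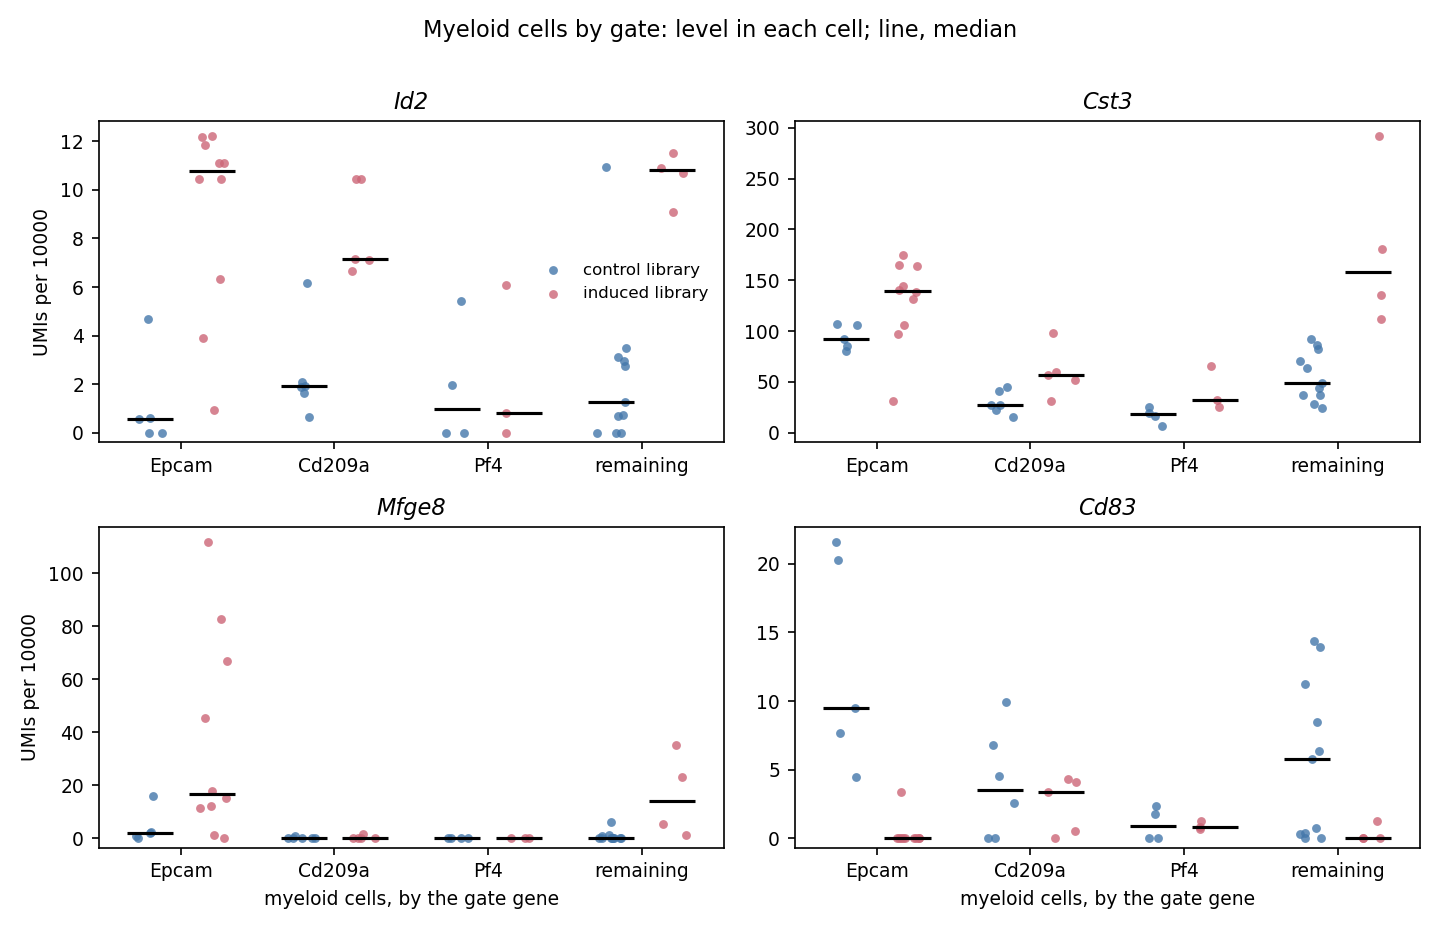
Each point is 1 myeloid cell, with control and induced cells side by side for the Epcam, Cd209a and Pf4 gates and the remaining cells, and the line is the median in UMIs per 10000. The induced cell that passed 2 gates is drawn in both. Id2 is higher in induced cells in 3 gates but not among Pf4 cells, and Cd83 is lower among Epcam and remaining cells but close among Cd209a cells.

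Within Epcam cells further macrophage genes differed. Of 1456 genes with at least 30 UMIs there, 134 (9.20%) were at least 2-fold higher in the induced library and 108 (7.42%) lower, the background for these cells. Lyz2 had 2 UMIs in 1 of 5 control cells and 428 in 7 of 10 induced cells, and Apoe 2 UMIs in 1 and 312 in 7 cells. The induced cell that passed both gates held 79.7% of the Lyz2 UMIs, and without it Lyz2 was 461 CPM in the induced Epcam cells. For Apoe another cell held 49.0%, and the level without it was 781 CPM. Fcgr2b had no UMI in 5 control cells and 90 in 9 induced cells, at least 10.9-fold higher. C1qa was 516 and 1504 CPM, with UMIs in 5 of 5 and 9 of 10 cells. Cish and Eva1b had no UMI in the 5 control cells and UMIs in 9 of 10 induced cells, at least 3.39-fold and 4.24-fold higher. Runx3 was 209 and 362 CPM. Dusp2 was 786 and 161 CPM, and 528 and 42.4 CPM without the top cell of each library. Il1b was close in these cells, at 86.0 and 75.9 CPM with UMIs in 1 of 5 and 2 of 10 cells, and Ccl4 had 0 UMIs in the control and 52 in 2 induced cells. The induced cell that passed both gates held 45 of these 52 UMIs and 28 of the 36 induced Dusp2 UMIs.

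Clustering of the 59 cells gave 4 clusters that partly followed the library. A cluster led by Dusp2, Rgs1, Rgs2, Nr4a1 and Cd83 held 18 control and 2 induced cells, among them all 4 T cells. Another, led by Cd209d, Cd209a and Wfdc17, held 10 and 5 cells and had raised keratinocyte markers. Of the 9 Langerhans markers it had only Il1r2, Cd74 and Mgl2 raised, and not Cd207, Epcam or Mfge8. The macrophage-like cluster, led by Pf4, Ms4a7 and F13a1, had 11 of 13 macrophage markers raised and held 6 and 9 cells. The last, led by Mfge8, Spint1 and Epcam, held 0 and 9 cells. Myeloid cells of the control library lay mostly in the Dusp2 and Cd209d clusters (14 and 7 of 26), those of the induced library in the Pf4 and Mfge8 clusters (9 and 8 of 21). With 1 library per group a cluster of mostly 1 library may be that library, and when the level of each gene was centred per library, 3 clusters of 14 and 9, 11 and 11, and 9 and 5 cells resulted.

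The induced microRNA belongs to a family that is known for restraining the transcription factors ZEB1 and ZEB2 in epithelial cells. MicroRNAs pair with target RNAs through the seed, bases 2 to 8. The mature sequences are shown because 3 members share 1 seed and the other 2 differ from it, with the seed in capitals (RefSeq sequences, assembly GRCm38.p6).
mmu-miR-200b-3p: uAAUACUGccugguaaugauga
mmu-miR-429-3p: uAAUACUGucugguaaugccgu
mmu-miR-200c-3p: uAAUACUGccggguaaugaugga
mmu-miR-200a-3p: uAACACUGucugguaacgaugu
mmu-miR-141-3p: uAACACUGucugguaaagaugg
The mature miR-200b-3p lies at chr4:156055685-156055706 on the minus strand, inside the annotated span of the long transcript Gm13648 (chr4:156052715-156059802, minus strand, GENCODE release M21 on GRCm38). MicroRNAs themselves are not read by a 3′ poly(A) library, so Gm13648 was the only reading of the locus.

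Gm13648 was detected in few immune cells. In the control library 0 of 34 immune cells had a UMI, which allows up to 8.82% of cells with a UMI (3 of the 34) and sets no limit on cells expressing it, and in the induced library 19 UMIs lay in 4 of 25 immune cells, all myeloid by Csf1r, with 15 in 1 cell. Among other filtered cells it was detected in 3.60% of the control and 70.9% of the induced library. After thinning to 2000 UMIs, 0 of 25 induced immune cells (which allows up to 12%) and 49.0% of 4827 other induced cells had a UMI, at unthinned median depths of 18816 and 18003 UMIs. The level in immune cells was thus far below that of the other cells of the same suspension. Whether these UMIs came from the immune cells or from free RNA was not tested. Expression of miR-200b from a transgene elsewhere was not measured.

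ZEB2 is a known target of the family and has a role in the identity of tissue macrophages and dendritic cells. In myeloid cells Zeb2 ranged from 0 to 52.8 UMIs per 10000 with a median of 2.41 in control and from 0 to 16.6 with a median of 1.95 in induced cells. The summed levels were 342 CPM (290 to 401) and 231 CPM (187 to 283), a log2 ratio of -0.56 (-0.95 to -0.19). The range of the induced cells lay within that of the control cells, which reached higher. By gate it was 86.0 and 75.9 CPM in Epcam cells, 403 and 392 CPM in Cd209a cells, 885 and 889 CPM in Pf4 cells and 305 and 160 CPM in the remaining cells, so within 3 of the gates the levels were close. In the other cells of the libraries Zeb2 was 76.7 and 33.8 CPM, a log2 ratio of -1.18 (-1.24 to -1.13). That sum follows the mixture of cell types in each suspension, whose part in it was not tested. Zeb1 had 8 and 10 UMIs in myeloid cells, too few to compare.

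The annotated 3′ UTR of Zeb2 holds 5 matches to the seed of miR-200b, CAGTATT, all on the minus strand of chromosome 2. They are printed with the match in capitals to show what a seed match looks like in a family target that most myeloid cells express.
Zeb2 site 1, chr2:44988167-44988188: ccatacatCAGTATTttattat
Zeb2 site 2, chr2:44988102-44988123: cagtgcatCAGTATTacgattc
Zeb2 site 3, chr2:44987740-44987761: acccgtgtCAGTATTagacgac
Zeb2 site 4, chr2:44987655-44987676: aattttgtCAGTATTacaccaa
Zeb2 site 5, chr2:44987521-44987542: gtagtgtaCAGTATTatagttc
The 3′ UTR of Id2 holds 1 such match, and those of Mfge8, Cd83, Epcam, Runx3, Cst3 and Mgl2 hold 0. Among measured myeloid genes with an annotated 3′ UTR, 534 had a match, with 3.37% at least 2-fold higher, 3.18% lower and a median log2 ratio of -0.04. The 3245 without a match gave 4.38%, 3.95% and -0.06. These values are a description with no test, and a match is a run of letters, not a shown target site.

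Growth factors of immune cells were also measured in the other skin cells. Il34, the CSF1R ligand that keratinocytes make and Langerhans cells need, was 24.1 CPM (23.1 to 25.1) in the control and 10.9 CPM (10.3 to 11.6) in the induced library, and Csf1, the other ligand, 4.17 and 6.78 CPM. Il15, a growth factor of γδ T and natural killer cells, was 4.61 and 1.88 CPM, and Kitl, the ligand of the mast cell receptor KIT, 40.8 and 46.9 CPM. Tgfb3 was 30.7 and 7.20 CPM and Tgfb1, a cytokine that Langerhans cells need, 45.9 and 52.6 CPM. In the Epcam cells of the myeloid class Tgfb1 was higher, at 295 and 205 CPM. The sums over the other skin cells follow the mixture of cell types in each suspension, whose part in them was not tested.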

How the data were processed

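The authors deposited raw UMI counts per gene and barcode (32285 genes), made with Cell Ranger 6.0.0 on build mm10, per the submitters' processing notes. Libraries were 10x 3′ v3.1, per the labels' protocols. Counts were used as deposited. The selection rule, gene lists and comparisons were chosen with earlier results of these data known. For each class and library, UMIs were added up over cells and scaled to CPM, with 95% limits from the exact Poisson method. Log2 ratios with an interval are induced over control from exact conditional binomial limits, and other log2 ratios, list medians and 2-fold counts use CPM plus 5. Shares have exact Clopper-Pearson limits. The limit set for 0 counts was 3 counts. Intervals describe counting error, and as each genotype had 1 library no test was made.

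Named genes were the 10 largest rises and 10 falls among genes with at least 50 UMIs, at least 50 CPM in the higher library, intervals that did not overlap, and a higher level no lower than in the other cells of that library, leaving out mitochondrial, ribosomal protein, haemoglobin, sex-linked and predicted genes, beside members of the 19 gene lists with at least 30 UMIs. Cst3, Slc6a4, the gates and other genes outside the rule were chosen after their values were seen. Clusters came from scanpy 1.11.5 and leidenalg 0.10.2 (2000 variable genes, 20 principal components, 15 neighbours, resolution 1) and were named only from the marker lists. Scrublet's automatic threshold marked 3 and 1 cells (0.058% and 0.019%) and was not usable, so doublets were kept, and leaving out the 7% with the highest scores was an alternative. The sums and intervals were tested on simulated data that held counting error alone, without variation between cells. Python 3.11.15, numpy 2.4.6, scipy 1.17.1 and pandas 2.3.3 were used. Genes were matched to GENCODE M21 by identifier (32158 of 32285).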

Additional observations from a re-analysis of the deposited data

How the results depend on the processing

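The log2 ratio of immune shares kept its sign and an interval spanning 0 under all 9 alternatives. As a share of cells under the keratin limit, immune cells were 2.45% and 1.75%. Thinning to 2000 UMIs put the myeloid share at 50% (control) and 60% (induced) and the induced T share at 0, and leaving out doublets put the control myeloid share at 89.3% and the control T share at 0. Resolutions of 0.5 and 2 gave 2 and 11 clusters. Genes at least 2-fold higher and lower in myeloid cells numbered 108 and 79 with 20 CPM added and 914 and 728 without a UMI minimum. The interferon median moved from 0.92 to 2.40 in cells with at least 8000 UMIs. Of 54 named or listed genes past 2-fold, 54 kept their direction under each of 7 alternatives. Adding another CPM value, or taking ratios relative to the median gene, could not have reversed such a gene. As a mean over cells 44 stayed past 2-fold, and with 20 CPM added 48 did. Of 3 more alternatives, chosen after seeing the data, cells with at least 8000 UMIs kept the direction of 53. Cells with at least 5 Epcam UMIs kept that of 44, and leaving out the top cell 49. Past 2-fold stayed 52, 35 and 32. Reversed log2 ratios (5 CPM added) without the top cell were -0.027 for Il1b, -1.84 for Isg15, 0.036 for Plac8, -0.10 for F13a1 and -0.88 for Ly6i, where the top cell was left out only in the library with the higher level. With the top cell of both libraries left out, also chosen after seeing the data, 52 genes kept their direction and 48 stayed past 2-fold, and the reversed ones were Isg15 at -1.35 and Ly6i at -0.33. In Epcam cells the reversed values were -0.17 for Il1b, -3.06 for Isg15 and 0.10 for Itgb5. Values of 1.48 for Gas6 and Cx3cr1, 3.18 for Hmox1 and 2.45 for Aurkb and Kif11 have 0 control UMIs against 2 to 9 induced ones, and their size follows from the 5 CPM added. By the limit of 3 UMIs Hmox1 was at least 1.09-fold higher, but the exact interval of its log2 ratio began at -0.48. For Gas6, Cx3cr1, Aurkb and Kif11 no reversal was measured. Plac8 was 0.57 in cells with at least 8000 UMIs. The cause of the others was not tested. No paired analysis was possible because each group had 1 library and the labels carry no replicate number, and for the same reason no replicate could be left out. With 26 and 21 myeloid cells, a gene at 7 CPM or less is at the limit of 3 UMIs.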
